A study of Arabidopsis thaliana with 8 samples.

Results

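The genes described here are those whose normalized array signal was lower under bright than under dim red light in every replicate pair. Total RNA of wild-type Arabidopsis thaliana of the Landsberg ecotype was hybridised to 8 arrays, 4 after 48 hours of red light at 20 µE and 4 after 48 hours at 200 µE. All plants shared genotype and light colour. The labels used here do not state the tissue, plant age, earlier light or source of the replicates, so the spread between arrays may be technical. To qualify, a probe had to match 1 gene in the platform annotation, be above 0 on all 8 arrays and lie outside the brightest 10% of such probes, which left 484 of 3439 probes. It then needed a log2 difference (200 minus 20 µE) below −0.25 in all 4 pairs of same-numbered arrays. That held for 73 probes, 15.1% of the 484, while 60 probes (12.4%) were above 0.25 in all 4 pairs. CCS, FZL, AT5G58330 and AT3G44050 met the rule and are not described here. CRR21, also set aside, would have missed it at −0.11 in pair 1 and −0.20 in pair 4. The remaining 69 probes stand for 69 loci. Because the same 8 arrays chose these genes, every difference between the light levels below is a description, without a test.

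Red light is absorbed by the phytochromes, photoreceptors that enter the nucleus in light and lead to the loss of phytochrome-interacting factors, a family of transcription factors. It also drives photosynthesis through chlorophyll, and more of it puts more electrons through the thylakoid membrane. Plastids signal their state to the nucleus, where most plastid proteins are encoded. Changes in red light can therefore alter transcripts of chloroplast, growth and defence genes. RefSeq (assembly TAIR10.1) gives a symbol other than the locus number for 7 of the 69 genes: TPP2, MAMI, CYN, PRA1.B3, PRA1.B6, GH9B12 and SIS. Roles given below for other loci are general background on Arabidopsis genes, not entries of the data.

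Values are quantile-normalized intensities, on which all 8 arrays have the same distribution, so each level is relative to the other probes. This matters for the direction. In the values as deposited, arrays at 200 µE had higher medians: over probes above 0 these ran from 0.513 to 0.578, against 0.267 to 0.345 at 20 µE. The median log2 difference of the 484 eligible probes was 0.91. The 69 genes had a median of 0.18 in the deposited values, so most of them were lower only in comparison with the other probes. Replicates 1 and 2 stood apart from replicates 3 and 4 at both light levels, and values are therefore also given for each of these sets. The sets are not groups of the study. Of 30 marker genes of leaf, root, flower, senescing and non-green tissue, 3 leaf genes had a single-gene probe, LHB1B2 and PSAN above 0 on all arrays and SBPASE at 0 on all. The kind of tissue could not be checked further.

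Across the 69 genes the mean log2 difference over the 4 pairs ran from −3.18 to −0.35, with a median of −0.74, a level 1.67-fold lower at 200 µE. The median of the 484 eligible probes was −0.02. At least a 2-fold lower level was found for 16 genes, 44 had mean differences between −1 and −0.5, and 9 were nearer to 0. The median was much the same in each pair, at −0.67, −0.69, −0.70 and −0.73 in pairs 1 to 4. The pair with the lowest difference was pair 1 for 16 genes, pair 2 for 16, pair 3 for 20 and pair 4 for 17.

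**Figure D1:**
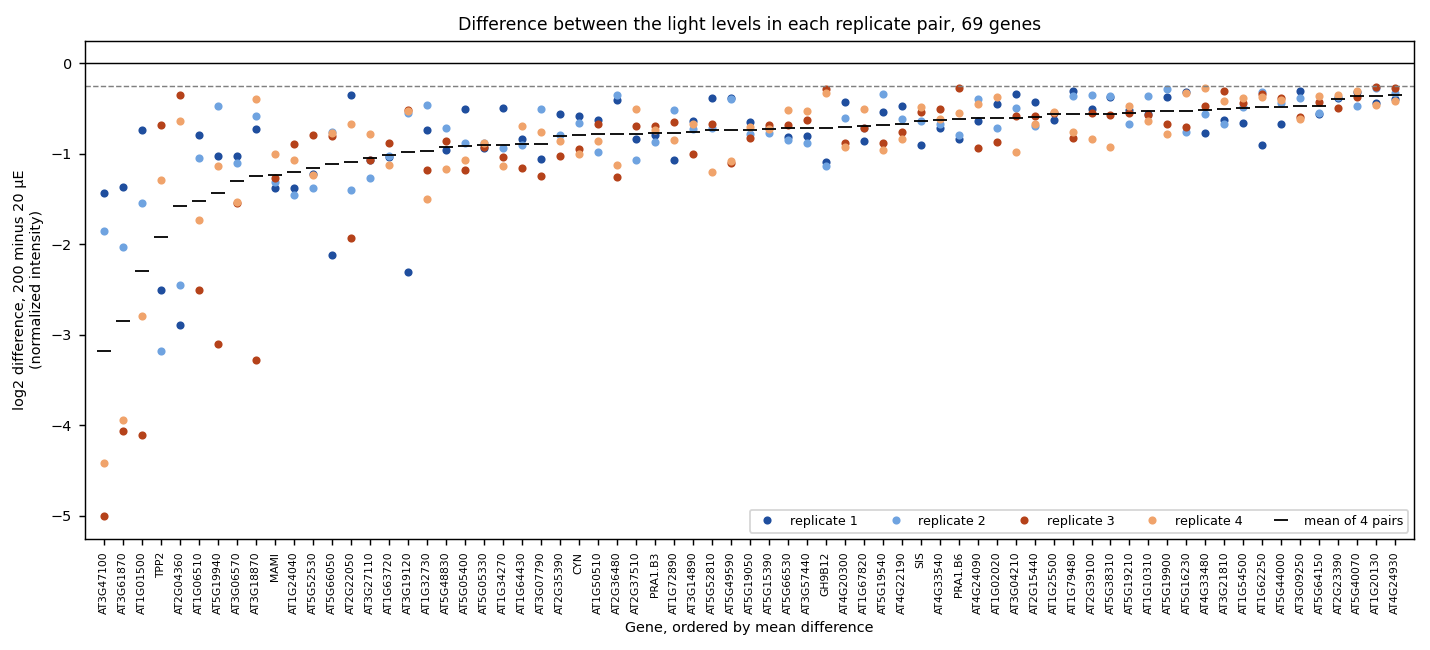
Log2 difference in normalized intensity (200 minus 20 µE) for each of the 69 genes, ordered by the mean. Points are the 4 replicate pairs, black bars their mean, and the dashed line is the rule's threshold of −0.25. Pairs spread widely among the first genes, and from the middle of the order on most pairs lie between −1 and −0.25.

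The 3 genes with the lowest mean difference were AT3G47100, AT3G61870 and AT1G01500, and all were dim, in a range where most eligible probes were lower at 200 µE after this normalization. AT3G47100 read 0.209, 0.203, 0.0789 and 0.0691 at 20 µE in replicates 1 to 4, and 0.0777, 0.0559, 0.00245 and 0.00324 at 200 µE. Each array at 200 µE was below its partner, but replicate 4 at 20 µE was below replicate 1 at 200 µE, so the groups overlapped. Its mean log2 difference was −3.18 ± 0.90 (SE, n = 4 pairs), made of −1.64 in replicates 1 and 2 and −4.71 in replicates 3 and 4. AT3G61870 read 0.157, 0.192, 0.131 and 0.169 at 20 µE against 0.0606, 0.0467, 0.00783 and 0.011 at 200 µE. Here the groups were apart, and the mean log2 difference was −2.85 ± 0.68 (SE, n = 4 pairs). Levels of AT1G01500 were 0.0926, 0.0941, 0.0772 and 0.0308 at 20 µE and 0.0555, 0.0323, 0.00448 and 0.00445 at 200 µE. This gene was the dimmest of the 69. Its mean difference of −2.30 ± 0.74 (SE, n = 4 pairs) stood against 0.46 in the deposited values, where it was lower in 1 of 4 pairs, and against −0.38 with median centring. With median centring AT3G47100 and AT3G61870 were at −1.90 and −1.75.

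TPP2 and AT2G04360 had the reverse order of sets. TPP2 encodes tripeptidyl peptidase II, a large subtilisin-type protease that trims peptides released by the proteasome. It read 0.0655, 0.153, 0.125 and 0.203 at 20 µE and 0.0115, 0.017, 0.078 and 0.0833 at 200 µE. The difference was −2.84 in replicates 1 and 2 and −0.98 in replicates 3 and 4, with a mean of −1.91 ± 0.57 (SE, n = 4 pairs). AT2G04360 read 0.0801, 0.168, 0.275 and 0.279 at 20 µE and 0.0108, 0.0308, 0.216 and 0.179 at 200 µE. For both genes the 200 µE arrays of replicates 3 and 4 were above the 20 µE array of replicate 1, and the groups overlapped. The mean difference of AT2G04360 was −1.58 ± 0.64 (SE, n = 4 pairs), from −2.67 in one set and −0.49 in the other. It was −0.76 without the 200 µE array of replicate 1.

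**Figure D2:**
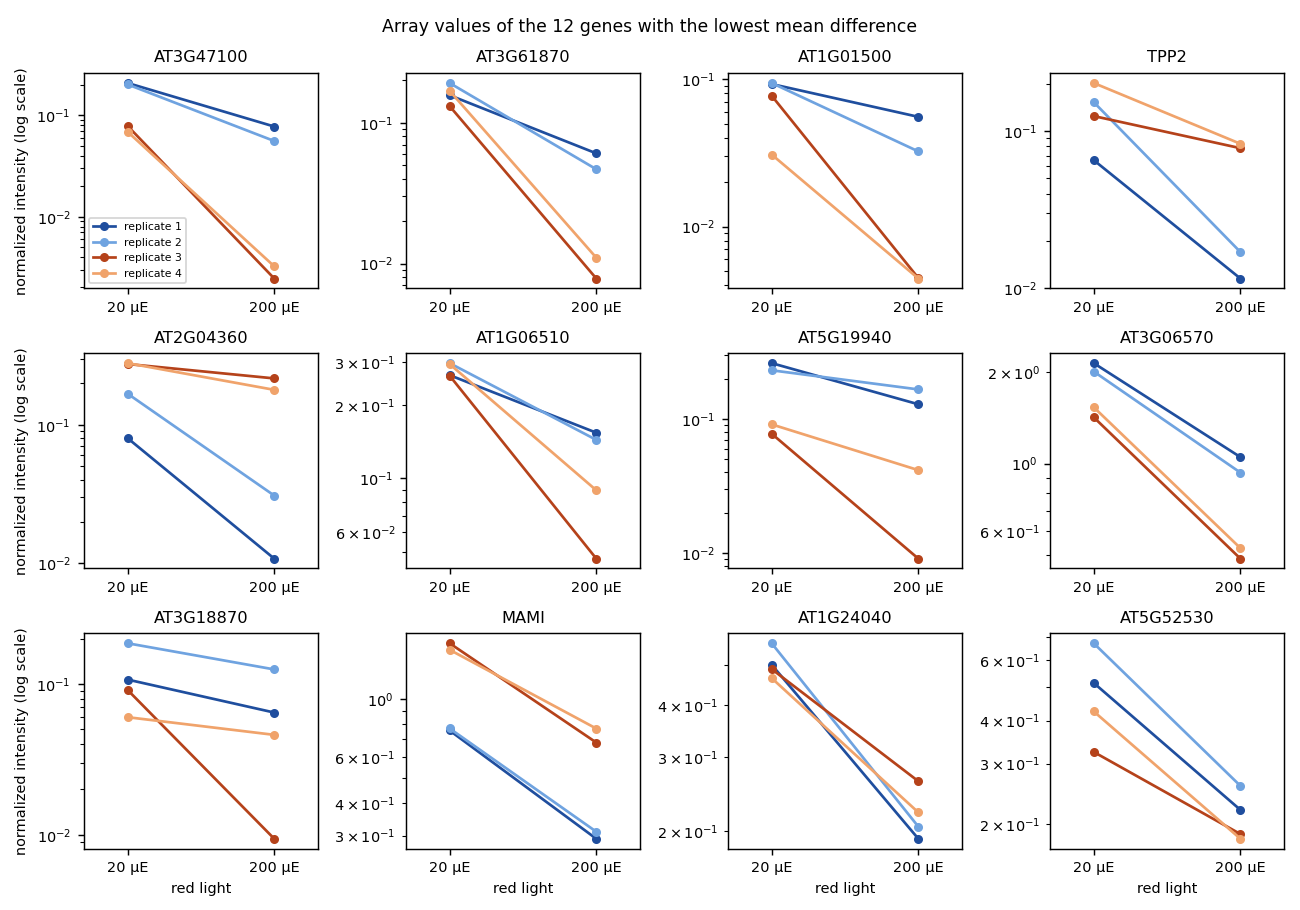
Normalized intensity (log axis, scaled separately in each panel) at 20 and 200 µE for the 12 genes with the lowest mean difference. Lines join the same-numbered arrays, and every 200 µE point is below its partner. The gap is widest in replicates 3 and 4 for AT3G47100, AT3G61870 and AT1G01500, and in replicates 1 and 2 for TPP2 and AT2G04360.

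AT1G06510 read 0.266, 0.298, 0.265 and 0.296 at 20 µE and 0.154, 0.144, 0.0467 and 0.0893 at 200 µE. Its 4 arrays at 20 µE were close to each other and all lay above those at 200 µE, with a mean log2 difference of −1.52 ± 0.38 (SE, n = 4 pairs). AT5G19940, a fibrillin of the plastid, a family of lipid-associated proteins of plastoglobules and thylakoids, read 0.262, 0.232, 0.0777 and 0.0913 at 20 µE. At 200 µE it read 0.129, 0.167, 0.00905 and 0.0415, and the groups overlapped. The mean of −1.43 ± 0.57 (SE, n = 4 pairs) leaned on pair 3, at −3.10, and the other 3 pairs averaged −0.88. Without the 200 µE array of replicate 3 the difference was −0.58, and with median centring −0.53. AT3G18870, a gene of the mTERF family of organelle nucleic-acid-binding proteins, read 0.107, 0.186, 0.0913 and 0.0602 at 20 µE and 0.0647, 0.125, 0.00942 and 0.046 at 200 µE. Pair 3 again carried its mean of −1.24 ± 0.68 (SE, n = 4 pairs), since the other pairs averaged −0.56. It was −0.51 without the 200 µE array of replicate 3 and −0.18 with median centring. A lowest pair more than 1 log2 unit below the next was found for 5 genes in all. The others were AT1G01500 (pair 3, −4.11, other pairs −1.69), AT5G66050 (pair 1, −2.12, other pairs −0.78) and AT3G19120 (pair 1, −2.31, other pairs −0.53).

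Bright probes were found among the large differences as well. AT3G06570, annotated as a kelch-repeat protein, was the brightest of the 69 genes and read 2.14, 2.01, 1.42 and 1.53 at 20 µE against 1.05, 0.935, 0.488 and 0.528 at 200 µE. Its groups were apart, with a mean log2 difference of −1.30 ± 0.14 (SE, n = 4 pairs). MAMI, named for a membrane-associated protein induced by mannitol, read 0.757, 0.77, 1.63 and 1.54 at 20 µE and 0.291, 0.31, 0.68 and 0.77 at 200 µE. Within each set both 200 µE arrays lay below both 20 µE arrays, but replicate 4 at 200 µE (0.77) was above replicate 1 at 20 µE (0.757), so the groups overlapped. The pair differences were −1.38, −1.31 and −1.26 in pairs 1 to 3 and nearest to 0 in pair 4, a mean of −1.24 ± 0.08 (SE, n = 4 pairs).

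AT1G24040, a member of the GNAT acetyltransferase family, read 0.499, 0.562, 0.488 and 0.464 at 20 µE and 0.192, 0.205, 0.263 and 0.222 at 200 µE. No array at 200 µE came near those at 20 µE, and the mean log2 difference was −1.20 ± 0.13 (SE, n = 4 pairs). AT5G52530 read 0.515, 0.671, 0.325 and 0.426 at 20 µE and 0.22, 0.259, 0.187 and 0.181 at 200 µE, without overlap and with a mean of −1.16 ± 0.13 (SE, n = 4 pairs). The 20 µE arrays of this gene were spread more widely than those at 200 µE.

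The other 4 of the 5 brightest genes had smaller differences, and in 3 of them the replicate sets kept the light groups from separating. PRA1.B6, a prenylated Rab acceptor protein of the secretory pathway, read 1.89, 1.94, 0.845 and 0.905 at 20 µE and 1.05, 1.12, 0.702 and 0.619 at 200 µE. Replicates 1 and 2 at 200 µE were thus above replicates 3 and 4 at 20 µE, although each pair was lower, with a mean of −0.61 ± 0.13 (SE, n = 4 pairs). AT2G36480 went the other way between the sets, at 0.758, 0.735, 2.24 and 2.03 at 20 µE and 0.575, 0.575, 0.94 and 0.933 at 200 µE. Its pairs differed by −0.40 and −0.35 in replicates 1 and 2 and by −1.25 and −1.12 in replicates 3 and 4 (mean −0.78 ± 0.24, SE, n = 4 pairs, or −0.51 without the 20 µE array of replicate 3). AT4G33540, of the metallo-beta-lactamase family, read 1.38, 1.41, 0.981 and 1.04 at 20 µE and 0.84, 0.89, 0.69 and 0.678 at 200 µE, without overlap (mean −0.63 ± 0.04, SE, n = 4 pairs). AT4G22190 read 1.44, 1.59, 0.819 and 0.875 at 20 µE and 1.04, 1.04, 0.485 and 0.49 at 200 µE, with overlap (mean −0.67 ± 0.08, SE, n = 4 pairs).

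The most even genes had nearly the same difference in all pairs. AT5G05330, an HMG-box protein, a kind that binds DNA, read 0.72, 0.769, 0.344 and 0.335 at 20 µE and 0.375, 0.417, 0.181 and 0.182 at 200 µE. Its level in replicates 3 and 4 was less than that in replicates 1 and 2 at both light levels, so the groups overlapped, yet the 4 differences ran from −0.94 to −0.88 (mean −0.91 ± 0.02, SE, n = 4 pairs). AT5G15390, of the tRNA and rRNA methyltransferases, read 0.47, 0.38, 0.266 and 0.288 at 20 µE and 0.287, 0.224, 0.167 and 0.174 at 200 µE (mean −0.72 ± 0.02, SE, n = 4 pairs). AT1G25500, a choline-transporter-like membrane protein, read 0.799, 0.933, 0.799 and 0.822 at 20 µE and 0.517, 0.639, 0.548 and 0.567 at 200 µE (mean −0.56 ± 0.02, SE, n = 4 pairs). Its groups were apart, while those of the other 4 most even genes overlapped. AT2G23390 read 0.668, 0.652, 0.52 and 0.461 at 20 µE and 0.512, 0.505, 0.369 and 0.361 at 200 µE (mean −0.40 ± 0.03, SE, n = 4 pairs). AT4G24930, a protein of the thylakoid lumen, read 0.921, 1.005, 0.768 and 0.652 at 20 µE and 0.701, 0.803, 0.635 and 0.489 at 200 µE, and its mean of −0.35 ± 0.03 (SE, n = 4 pairs) was the nearest to 0 (−0.22 without the 200 µE array of replicate 4). The SD of the pair differences was below 0.1 for 11 of the 69 genes and above 1 for 7, with a median of 0.23, against 0.28 for the 415 other eligible probes.

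Members of known families were grouped by role after the list was known, so the groups carry no count against other genes. Genes for nucleic acid metabolism and regulation made the largest group, 9 genes with mean log2 differences from −1.24 to −0.36 and a median of −0.76. Besides AT3G18870, AT5G05330 and AT5G15390 it held the pentatricopeptide repeat gene AT1G64430, of a family that binds organelle RNA, at −0.89 ± 0.10 (SE, n = 4 pairs). AT2G37510, a protein with an RNA recognition motif, was at −0.78 ± 0.12 (SE, n = 4 pairs), and AT3G14890, a DNA 3′-phosphoesterase of base damage repair, at −0.76 ± 0.08 (SE, n = 4 pairs). The RNA helicase AT5G19210, the zinc finger gene AT3G21810 and the MADS-box gene AT5G40070 were at −0.55, −0.50 and −0.36.

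Enzymes of small molecules numbered 8, with a median of −0.76. CYN, the cyanase that breaks down cyanate, read 0.841, 0.713, 1.07 and 1.07 at 20 µE and 0.563, 0.453, 0.556 and 0.536 at 200 µE, without overlap (mean −0.80 ± 0.11, SE, n = 4 pairs). Nucleotide metabolism was present with AT2G35390, which makes phosphoribosyl pyrophosphate (−0.81), and AT1G50510, which breaks down pseudouridine monophosphate (−0.78). AT5G52810 (SARD4), a reductase in the making of the defence compound pipecolic acid, was at −0.74 ± 0.17 (SE, n = 4 pairs). AT1G10310, a pterin aldehyde reductase, AT5G16230, of the acyl carrier protein desaturases, and AT5G44000, of the glutathione S-transferases, were at −0.53, −0.53 and −0.48. AT1G24040 completed the group.

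Immune receptor genes of the nucleotide-binding class numbered 3. AT5G05400 read 0.63, 0.732, 0.455 and 0.483 at 20 µE and 0.444, 0.397, 0.201 and 0.23 at 200 µE, just without overlap, and had a mean log2 difference of −0.91 ± 0.15 (SE, n = 4 pairs). AT1G72890 and AT3G04210 were at −0.77 ± 0.12 and −0.60 ± 0.14 (SE, n = 4 pairs). Membrane proteins were MAMI, AT1G25500 and both prenylated Rab acceptors, from −1.24 to −0.56. PRA1.B3 read 0.545, 0.583, 0.479 and 0.471 at 20 µE and 0.314, 0.319, 0.297 and 0.284 at 200 µE, and unlike PRA1.B6 its groups were apart. Its mean was −0.77 ± 0.04 (SE, n = 4 pairs).

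The group of plastid proteins held AT5G19940, AT4G24930 and AT1G54500, a rubredoxin of the thylakoid membrane needed for photosystem II. Each gene was placed in a single group, and 34 genes were placed in none. Genes outside this group may therefore also encode plastid proteins, and its size is not the plastid share of the genes described here. AT1G54500 read 0.709, 0.727, 0.53 and 0.457 at 20 µE and 0.447, 0.519, 0.39 and 0.351 at 200 µE, with overlap (mean −0.49 ± 0.06, SE, n = 4 pairs). Proteolysis genes were TPP2, the peptidase gene AT3G27110 and the RING gene AT2G39100. AT3G27110 read 0.406, 0.381, 0.328 and 0.294 at 20 µE and 0.193, 0.159, 0.156 and 0.172 at 200 µE, without overlap (mean −1.05 ± 0.10, SE, n = 4 pairs). Cell wall and glycan genes were GH9B12 of the glycosyl hydrolases (−0.71), AT1G34270 of the exostosin family (−0.90) and AT2G15440, a polysaccharide biosynthesis gene (−0.59). A second kelch-repeat gene beside AT3G06570 was AT2G22050, at −1.09 ± 0.36 (SE, n = 4 pairs).

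AT1G63720, which encodes a hydroxyproline-rich protein, had the most even pairs of the 16 genes at least 2-fold lower. Its levels were 0.46, 0.487, 0.526 and 0.563 at 20 µE and 0.224, 0.24, 0.286 and 0.258 at 200 µE, a mean log2 difference of −1.02 ± 0.05 (SE, n = 4 pairs). A search of gene symbols and synonyms for the words of 10 functional groups reached 16 of the 484 eligible probes. It placed TPP2 among 2 genes of proteolysis and folding, the other being CCS, and GH9B12 among 3 of cell wall and carbohydrates. The 5 redox genes included CCS and AT5G58330, which met the rule and were set aside by name, and the other 3 did not meet it. By words alone it put 4 genes under transcription and signalling (CML41, GLR2.7, PPDK and PRK) and 1 each under RNA processing, photosynthesis and transferases. These held 0 of the 69 genes. The search did not reach AT1G64430, AT2G37510, AT5G19210 or AT1G24040, whose families are named above. For protein synthesis, transport and unnamed genes the words matched 0 eligible probes, which does not mean that such genes were absent. By this search too few probes were named to describe any pathway.

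The size and evenness of the difference went with the level. Set in order of mean log2 intensity among the 484 probes, the 69 genes spread from percentile 0.207 to 96.1 with a median of 48.1. In 4 classes of 121 probes by level, 16, 21, 13 and 19 of the genes were found from the dimmest class up, and their median differences were −1.18, −0.74, −0.60 and −0.63. The median SD between pairs was 0.83 in the dimmest class and 0.19, 0.17 and 0.21 in the others. Of the 16 genes at least 2-fold lower, 10 were in the dimmest class. The dimmest 5% of the eligible probes, 24 in number, tended to be lower whether or not they met the rule. Of these, 21 had a mean difference below 0, and their median was −0.75. The 24 held 7 of the 69 genes: AT3G47100, AT3G61870, AT1G01500, TPP2, AT5G19940, AT3G18870 and AT2G22050. Under other scalings the same 24 probes had medians of −0.25 (cyclic loess), 0.11 (median centring) and 0.95 (deposited values). The part of low signal in the differences of these 7 genes was not tested.

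**Figure D3:**
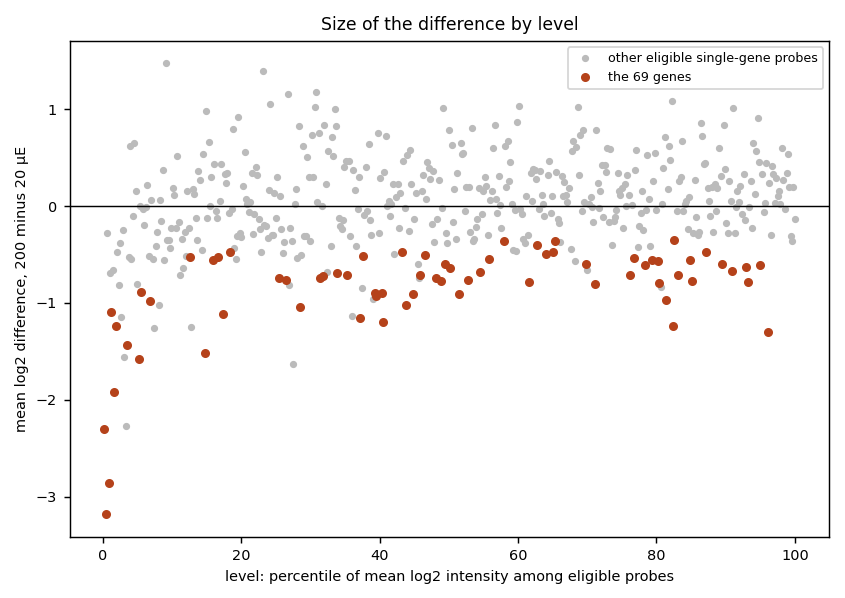
Mean log2 difference (200 minus 20 µE) against level, given as the percentile of mean log2 intensity among the 484 eligible single-gene probes. The 69 genes (coloured) lie at all levels; their median is −1.18 in the dimmest class of 121 probes and −0.63 in the brightest.

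In both replicate sets the typical difference was similar, with a median of −0.69 in replicates 1 and 2 and −0.76 in replicates 3 and 4. The set means were within 0.25 of each other for 30 genes. They were lower by over 0.5 in replicates 3 and 4 for 9 genes, and in replicates 1 and 2 for 5. Apart from the genes above, AT1G32730 (−0.60 and −1.34 in the order of the sets) and AT5G49590 (−0.39 and −1.09) were among the 9, and GH9B12 (−1.11 and −0.31) among the 5. The level averaged over both lights entered the rule only through the limits on brightness and on values of 0, and the difference in level between the sets did not enter it. That level was lower in replicates 3 and 4 for 48 of the 69 genes (69.6%), against 56.8% of the eligible probes, with median log2 differences between the sets of −0.41 and −0.14. AT3G47100 had −3.01 and AT5G19940 −2.23 at one end, and AT3G19120 2.14 and AT2G04360 2.34 at the other.

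**Figure D4:**
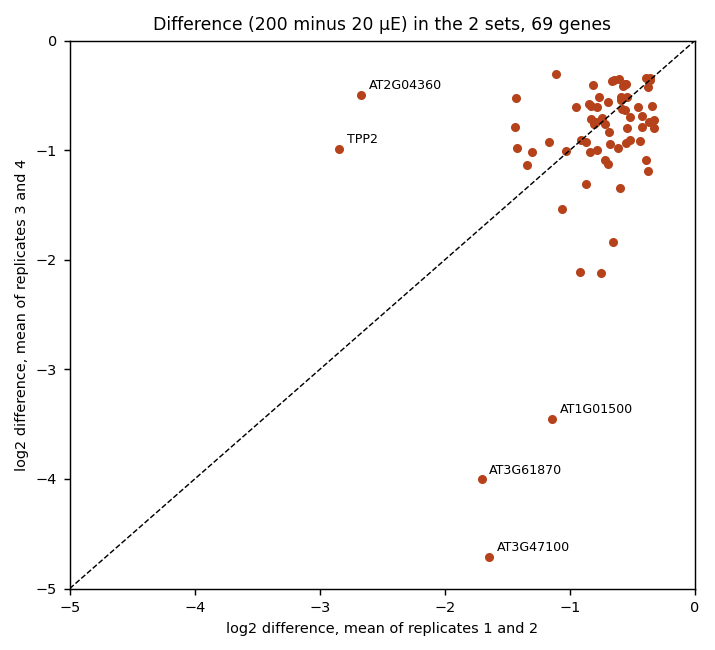
Mean log2 difference (200 minus 20 µE) of each of the 69 genes in replicates 1 and 2 (x axis) and in replicates 3 and 4 (y axis), with the line of equality dashed. Most genes lie near the line, while AT3G47100, AT3G61870 and AT1G01500 lie below it and TPP2 and AT2G04360 above it.

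A lower level in every pair did not always part the 2 groups of arrays. Some overlaps lay between the replicate sets, as for PRA1.B6, and some within a set. AT2G35390 was at 0.749 in replicate 1 at 200 µE and at 0.588 in replicate 2 at 20 µE. For 35 of the 69 genes all arrays at 200 µE were below all arrays at 20 µE, and for 34 they overlapped. Such separation in this direction was found for 47 of the 484 eligible probes (9.71%). Fitted over all 3439 probes with limma, without a block, 156 probes (4.54%) had an adjusted p under 0.05 and a lower level. Another 79 probes were called higher; the split was 170 lower and 42 higher with median centring, and 44 lower and 883 higher in the deposited values. The lower calls of the main scaling included 16 of the 69 genes. With the replicate number as a block the fit called 347 probes (10.1%) and 45 of the 69. The rule used the same contrast, and nothing is read from these counts. The 16 were AT1G24040, AT5G52530, AT3G27110, AT1G63720, AT1G34270, CYN, AT1G50510, PRA1.B3, AT1G72890, AT5G66530, AT3G57440, AT1G67820, SIS, AT3G04210, AT1G25500 and AT5G19210. None of the 10 genes with the lowest mean difference was among them.

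In the deposited values, without the normalization applied here, the mean difference of the 69 genes ran from −1.06 to 0.85. It was below 0 for 20 of them, against 26 of the 484 eligible probes (5.37%), and 26 of the 69 were higher at 200 µE in all 4 pairs, as were 408 of the 484 (84.3%). Lower values in all 4 pairs were found for 5 eligible probes (1.03%), all of them among the 69: AT3G47100, AT3G61870, AT3G06570, MAMI and AT1G24040. The deposited intensity of AT3G06570 was 1.51 ± 0.13 in dim light and 0.904 ± 0.242 in bright light (SD over 4 arrays each). That of AT1G24040 was 0.356 ± 0.038 and 0.299 ± 0.044 (SD over 4 arrays each). AT3G06570 and MAMI were also below −0.25 in each deposited pair, so these 2 genes alone met the rule with and without the normalization applied here. Centring each array on its median kept a lower mean for 68 of the 69 genes (44.6% of the eligible probes) and all 4 pairs lower for 63 (25.2%). AT2G22050 was the exception, at 0.01. With cyclic loess all 69 means were lower (44.2%), and all 4 pairs for 65 (24.2%). Fewer of the 69 still met the rule of −0.25 in all 4 pairs, 51 with median centring and 56 with cyclic loess.

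**Figure D5:**
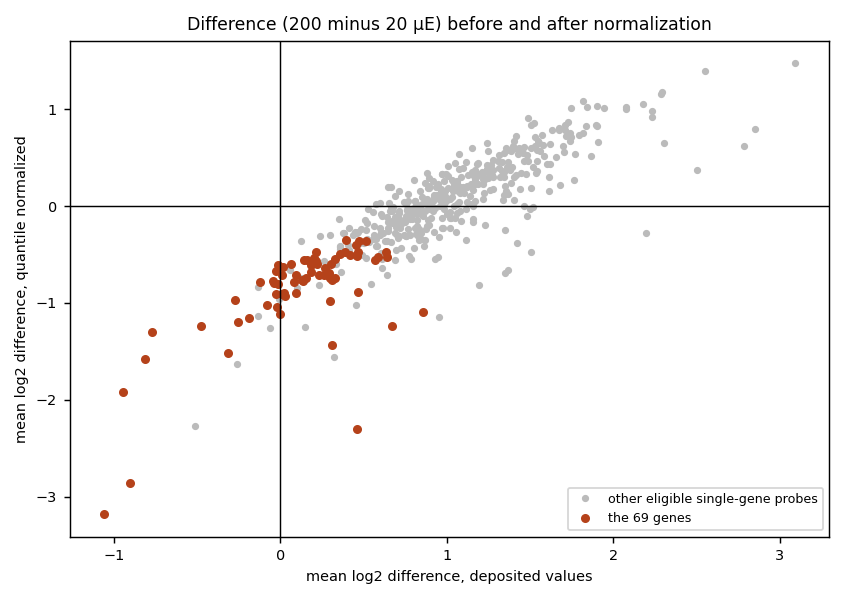
Mean log2 difference (200 minus 20 µE) in the deposited values (x axis) and after quantile normalization (y axis) for the 484 eligible single-gene probes, with the 69 genes coloured. Most probes lie right of 0 on the x axis, where the eligible median is 0.91, while the 69 genes gather around their median of 0.18.

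By chromosome, the 69 genes made up 13.6% of the eligible probes on chromosome 1, 10.5% on 2, 13.7% on 3, 8.86% on 4 and 23.7% (23 of 97) on 5. Some lay close together in gene order. AT5G05330, PRA1.B3 and AT5G05400 lay within a run of 9 protein-coding genes and were the only eligible probes there. Their deposited differences were 0.01, 0.14 and −0.03. The nearest eligible genes on either side, AT5G03900 and AT5G06010, were at 0.33 ± 0.26 and −0.30 ± 0.21 (SE, n = 4 pairs) after normalization. A longer run of 101 protein-coding genes, from AT5G19050 to AT5G19940, held 8 eligible probes, 5 of them among the 69. AT5G19050, an alpha/beta hydrolase, read 0.44, 0.468, 0.223 and 0.293 at 20 µE and 0.281, 0.272, 0.126 and 0.181 at 200 µE (mean −0.74 ± 0.04, SE, n = 4 pairs). AT5G19210, AT5G19540 and AT5G19900 were at −0.55, −0.68 and −0.53. The 3 other probes of the run lay between them in gene order and had the opposite sign after normalization: AILP1 at 0.79 ± 0.16, AT5G19370 at 0.43 ± 0.17 and AT5G19750 at 0.36 ± 0.19 (SE, n = 4 pairs). In the deposited values all 8 probes were higher at 200 µE, the 5 genes by 0.18 to 0.59 and the other 3 by 1.54 to 1.67. These positions were singled out after the values were seen, and chance was not tested. The median gene span was 2264 bases for the 69 genes and 2063 for the other eligible probes.

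At the edge of the rule the members and the other probes were hardly different. Just inside were AT1G20130, PRA1.B6 and AT4G33480, whose pair nearest to 0 was at −0.264, −0.268 and −0.269. Just outside were AT3G06200, AT1G51080 and AT1G18290, at −0.247, −0.241 and −0.238. AT3G06200 had a mean log2 difference of −0.83, lower than the median of the 69 genes.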

How the data were processed

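Intensities of 3439 probes on 8 single-channel arrays were taken as deposited by the authors. They were assumed to be linear, with 0 on 476 to 604 probes per array and a maximum that rounds to 100.0 on each. The sources used here do not give how the authors made them, the array's make or a genome build. Precision is limited by the number of arrays. Each 0 was replaced with the lowest positive value of its array, followed by quantile normalization and log2, in R 4.3.3 with limma 3.58.1. Of the probes, 692 had 1 annotated gene, 870 several, and the rest are unnamed. The limma fit (lmFit, eBayes, two-sided, Benjamini-Hochberg over all probes, 0.05) had no covariate and was checked on simulated data. The simulated arrays were independent, without replicate pairs or sets, so the check does not cover the pairing seen in the real arrays.

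Same-numbered arrays of the 2 light levels deviated together from their group means (r from 0.707 to 0.735 in 4 pairs, 2600 probes), and numbers were taken as pairs from the data. Arrays with other numbers had r from 0.444 to 0.462 within a replicate set and from −0.623 to −0.556 across the sets. The split into sets is thus part of the values for same-numbered arrays. SE values are of 4 pair differences and take no account of the replicate sets. Where pairs of the same set resemble each other, the SE may be too small. Named in full were the 12 genes with the lowest mean difference, the 5 brightest and the 5 most even, with further genes chosen by role after their values were seen. The members, lists and tests were chosen with earlier results of these data known. The planned promoter search was not run, since no sequence was used here.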

Additional observations from a re-analysis of the deposited data

How the results depend on the processing

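The direction of many of the genes depended on the normalization. In the deposited values the median log2 difference of the 69 genes was 0.18 instead of −0.74, and 9 of the 21 genes described in full changed sign: AT1G01500 (0.46), AT5G19940 (0.31), AT3G18870 (0.67), AT4G33540 (0.0157), AT5G05330 (0.0082), AT5G15390 (0.29), AT1G25500 (0.21), AT2G23390 (0.45) and AT4G24930 (0.40). The rule was then met by 2 probes, and limma called 44 probes lower and 883 higher, with 1 of the 69 genes among the lower. The cause was not tested. None of the 21 changed sign under median centring, cyclic loess, an added pseudocount, the filter on zeros or with an array left out, but sizes moved. Median centring moved 8 of the 21 by more than the SD between pairs, among them AT1G01500 (−0.38 from −2.30). AT3G18870 (−0.18 from −1.24) and AT5G19940 (−0.53 from −1.43) moved too, but by less than their wide SD between pairs. Cyclic loess put these 3 at −1.02, −0.61 and −0.82, and the filter on zeros at −0.79, −0.52 and −0.79. The rule was still met by 51 of the 69 genes with median centring and by 56 with cyclic loess. AT1G01500 and AT3G18870 were among those that met it with neither. With median centring limma called 170 probes lower, 10 of the 69 among them, and 42 higher. Leaving out probes at 0 before normalization gave 93 lower and 32 higher calls. The replicate block gave 347 lower and 272 higher calls, 45 of the 69 genes among the lower, from 156, 79 and 16. With single arrays left out lower calls ran from 93 (without replicate 4 at 20 µE) to 115 and higher calls from 46 to 59. Counts lower by over 1.5 times came also without replicate 3 at 20 µE (94 lower, 46 higher), and at 200 µE without replicate 2 (97 and 48), 3 (101 and 46) or 4 (100 lower), or replicate 1 (52 higher), and 47 were higher without replicate 4 at 20 µE. Without 1 replicate number 79 to 84 probes met the rule. A threshold of 0.5 left 32 probes and one of 0 gave 134. The median of the 69 genes stayed between −0.79 and −0.68 with an array left out, and was −0.69 and −0.76 in the replicate sets, a split added after seeing the data. A Dixon outlier check of the 21 genes described in full flagged 0 arrays in 42 groups of 4 arrays. With so few arrays, and with replicates 1 and 2 apart from 3 and 4, it could hardly single out an array. Nothing is concluded from it. Without the 200 µE array of replicate 3, AT3G18870 was at −0.51 and AT5G19940 at −0.58. No depth is known, and the dimmest genes had the least even differences.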
